A study of Mus musculus with 56 samples.

Results

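The 10 genes described here encode the contractile apparatus of fast-twitch muscle fibres: the fast myosin heavy chains Myh1, Myh2 and Myh4, the fast myosin light chains Mylpf and Myl1, the fast troponin subunits Tnnt3, Tnni2 and Tnnc2, the Z-disc protein Actn3 and the sarcoplasmic reticulum calcium pump Atp2a1. They were taken from the expression table by mouse gene symbol, matched through Entrez gene identifiers. All 10 were found among 19072 genes in the table, and all 10 were among the 12024 genes tested, which had a mean of at least 1 CPM. CPM are reads per 1000000 of a library size recovered from the authors' values, which is not the library's total of recovered reads. The data are RNA-seq of gastrocnemius, a mixed but mainly fast calf muscle, from female C57BL/6J mice aged 9 weeks. The mice were held under 12 h of light and 12 h of dark, fed freely for 7 days and then for 7 days either by day (daytime-restricted feeding, DRF) or by night (nighttime-restricted feeding, NRF, the reference). Each regimen was sampled every 4 h at 7 zeitgeber times (ZT, hours from lights-on) between ZT0 and ZT24, with 4 libraries per group and 56 in all. The sources used here do not say whether a library came from 1 mouse or from pooled tissue, nor give the hours of the feeding window, so the p-values below measure the spread between these libraries.

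Skeletal muscle fibres are classed by the myosin heavy chain they carry. Slow type I fibres use Myh7, and the fast types run from oxidative IIa (Myh2) through IIx (Myh1) to glycolytic IIb (Myh4), in order of increasing shortening speed; mouse gastrocnemius is known for its abundance of IIb fibres in the white part and of IIa and slow fibres in the deep red part. Calcium released from the sarcoplasmic reticulum binds the troponin complex on the thin filament, myosin heads then pull on actin, and the SERCA1 pump encoded by Atp2a1 returns the calcium.

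The 3 fast heavy chain genes lie next to each other on chromosome 11, all on the plus strand of GRCm38.p6: Myh2 at 67171027 to 67197517, Myh1 at 67200102 to 67224577 and Myh4 at 67237812 to 67260447. Their coding sequences, taken from the GENCODE M21 annotation, were 5829 bases long for Myh2 and Myh1 and 5820 for Myh4. Myh1 and Myh2 were identical at 91.1% of aligned positions, Myh1 and Myh4 at 90.2%, and Myh2 and Myh4 at 88.2%, against 78.3% to 78.7% between each of them and Myh7. The gap-free stretch of 60 bases at which the 3 fast chains differed most is shown to make plain how reads are told apart. Capitals mark the 24 positions that are not equal in all 3.
Myh2 coding bases 3841 to 3900: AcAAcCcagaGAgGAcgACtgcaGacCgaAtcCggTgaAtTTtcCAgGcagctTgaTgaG
Myh1 coding bases 3841 to 3900: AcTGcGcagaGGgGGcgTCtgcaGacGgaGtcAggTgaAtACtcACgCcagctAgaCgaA
Myh4 coding bases 3832 to 3891: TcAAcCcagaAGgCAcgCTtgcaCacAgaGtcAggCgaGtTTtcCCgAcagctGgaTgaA
In some stretches a single read cannot tell the genes apart. Of the 5730 windows of 100 bases in the coding sequence of Myh1, 7.92% occurred unchanged in Myh2 and 2.32% in Myh4, and 1.24% of the windows of Myh2 occurred in Myh4. None of the windows of Myh7 occurred in the other myosin coding sequences searched. The values of Myh1, Myh2 and Myh4 accordingly held fractions of reads, shared out by the authors' estimation, whereas those of the other 7 genes were whole reads. A part of any likeness between Myh1 and Myh2 can therefore lie in shared reads. Of the windows of the far more abundant Myh4, 2.32% occurred in Myh1 and 1.24% in Myh2. In DRF ZT20 replicate 2, Myh4 was at 88407 CPM, beside 642 for Myh1 and 341 for Myh2. Low values of Myh1 and Myh2 can thus depend on how reads common with Myh4 were shared out. The size of these parts was not tested.

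The 250 bases upstream of the annotated start of each fast heavy chain gene, from RefSeq on GRCm38.p6, are shown because the 3 genes form 1 cluster and their transcripts varied together, in the same or in opposite directions. Capitals mark the longest run of bases found in all 3 windows.
Myh2, chr11:67170777-67171026, plus strand: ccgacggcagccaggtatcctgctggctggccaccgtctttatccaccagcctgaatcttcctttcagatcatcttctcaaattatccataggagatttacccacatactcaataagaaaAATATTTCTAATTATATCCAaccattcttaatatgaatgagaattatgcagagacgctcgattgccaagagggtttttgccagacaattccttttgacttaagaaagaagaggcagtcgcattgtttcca
Myh1, chr11:67199852-67200101, plus strand: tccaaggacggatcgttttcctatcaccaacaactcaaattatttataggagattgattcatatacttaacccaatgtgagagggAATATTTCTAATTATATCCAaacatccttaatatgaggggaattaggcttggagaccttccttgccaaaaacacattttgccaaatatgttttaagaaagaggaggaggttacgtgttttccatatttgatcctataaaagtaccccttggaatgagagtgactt
Myh4, chr11:67237562-67237811, plus strand: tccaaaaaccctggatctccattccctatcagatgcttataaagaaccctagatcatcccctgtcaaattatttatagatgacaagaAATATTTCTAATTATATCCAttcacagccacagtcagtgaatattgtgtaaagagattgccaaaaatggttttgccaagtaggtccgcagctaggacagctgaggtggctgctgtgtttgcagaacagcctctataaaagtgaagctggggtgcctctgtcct
The shared run was 20 bases long and began 130 bases before the start of Myh2, 165 before that of Myh1 and 163 before that of Myh4. On either strand it was found in 3 of 32851 RefSeq promoter windows of the same length, those of these 3 genes. The letters TATAAAAG were found once each in the windows of Myh1 and Myh4 and not in that of Myh2, and 1.51% of all windows held them on either strand. The shared run ended 111 bases before the annotated start of Myh2, 146 before that of Myh1 and 144 before that of Myh4. The Myh2 window thus held fewer bases after the run. Bases past the annotated start were not searched, so the lack in Myh2 holds only for this window. The E-box letters CANNTG, on either strand, were found 2 times upstream of Myh4 and not in the windows of Myh1 and Myh2, against 66.2% of all windows with at least 1. A match of letters is a description of the sequence and not a binding site. Promoter windows were found for 7 of the 10 genes.

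Reads recovered for 17442 of the 19072 genes ranged from 28172990 to 36183392 per library, and the 10 genes together took 13.6% to 21.2% of them, with a median of 17.4%. Myh4 alone took 3.63% to 7.97%. The skeletal muscle markers Ckm, Acta1, Des, Mb and Ttn summed to 55992 to 118428 CPM, so transcripts of the labelled tissue were abundant in every library. Markers of slow muscle fibres (Myh7, Myl2, Tnnt1, Tnni1 and Tnnc1) varied far more. Their sum ranged from 12.9 to 2815 CPM in DRF and from 40.3 to 3142 CPM in NRF, with medians of 1260 and 1455 CPM, and this spread lay within groups as well as between them. None of the 5 was at 0 in any library.

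Per kilobase of the length used in the authors' values, 8 of the 10 genes had means of 3471 CPM per kb or more and the IIx and IIa heavy chains lay far below them. The order of the genes depends on these lengths, which were not checked against the transcripts present. Mylpf and Myl1 had like means of 11867 and 11975 CPM, with lengths of 1062 and 2074 bases. Tnnt3, the fast tropomyosin-binding troponin, had the highest mean at 14155 ± 2570 CPM per kb (SD, n = 56). It was followed by Tnnc2, the calcium-binding subunit, at 13417 ± 2661, and by Mylpf, the phosphorylatable light chain of fast fibres, at 11175 ± 2634. Atp2a1 stood at 10993 ± 2013 and was below Mylpf in 29 of 56 libraries, so that the order of these neighbours was not fixed. Myh4 came next at 9442 ± 2434, then the essential light chain Myl1 at 5774 ± 1463, the inhibitory subunit Tnni2 at 5055 ± 806 and the fast-fibre actin cross-linker Actn3 at 3471 ± 921. Myh1 at 610 ± 268 and Myh2 at 396 ± 218 were more than an order of magnitude lower than Myh4. Neighbours kept this order in all 56 libraries for Tnnc2 over Mylpf, Myh4 over Myl1, Tnni2 over Actn3, Actn3 over Myh1 and Myh1 over Myh2, in 48 for Tnnt3 over Tnnc2, in 49 for Atp2a1 over Myh4 and in 44 for Myl1 over Tnni2.

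Among the heavy chains the order per length was Myh4, Myh1, Myh2 and Myh7 in 56 of 56 libraries of both regimens. The place of Myh1 over Myh2 rests in part on the lengths in the authors' values, 6353 bases for Myh1 and 7137 for Myh2. In CPM, Myh2 was above Myh1 in DRF ZT4 replicate 1 (5282 against 4984) and in DRF ZT8 replicate 2 (677 against 673). Shares and ratios per length depend on these lengths too. As a share of these 4 transcripts per length, the IIb chain Myh4 took a median of 89.5% in DRF (73.9% to 99%) and 88.9% in NRF (73.7% to 97.5%). The IIx chain Myh1 took a median of 5.65% in DRF (0.681% to 13.2%) and 6.51% in NRF (1.61% to 15.3%). The IIa chain Myh2 took 4.18% in DRF (0.322% to 10.6%) and 4.18% in NRF (0.508% to 9.05%), and slow Myh7 took 0.670% in DRF and 0.886% in NRF. The ranges of the regimens lay almost wholly on top of each other. In whole tissue, fewer fibres of a type and less of its RNA per fibre cannot be told apart.

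**Figure D1:**
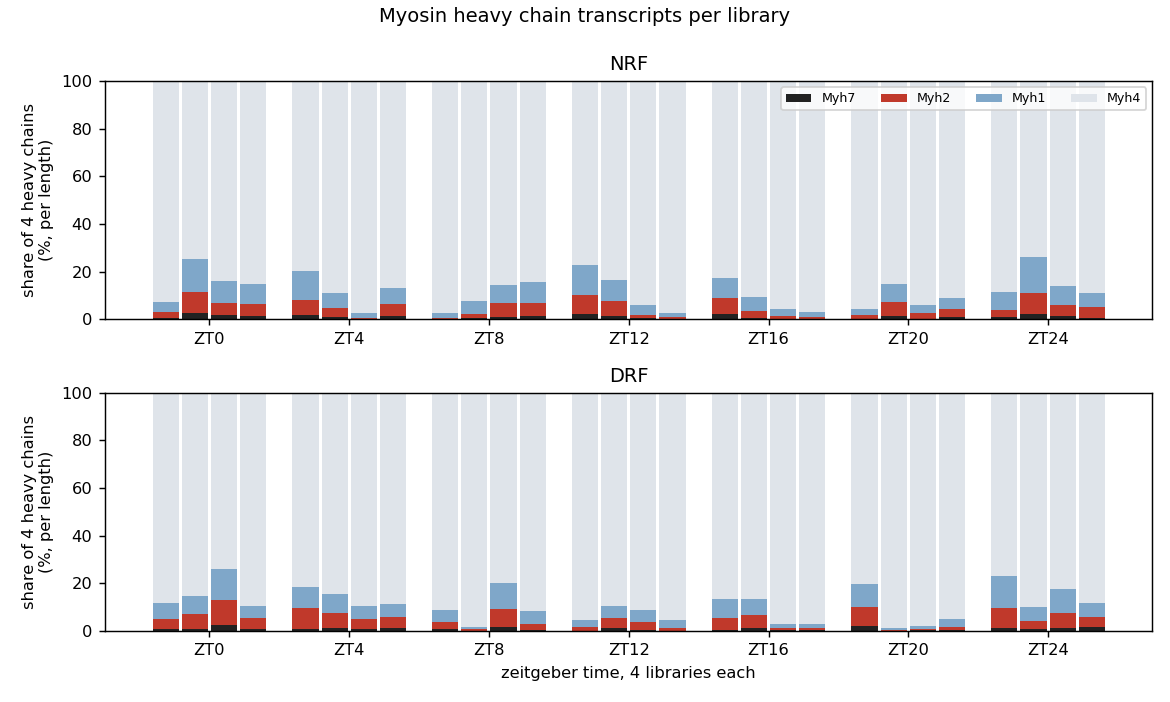
Stacked bars give the share, in percent of the 4 transcripts per length, of Myh4 (pale), Myh1 (blue), Myh2 (red) and Myh7 (black) in each of the 28 NRF libraries (upper panel) and 28 DRF libraries (lower panel), with 4 bars per zeitgeber time. Myh4 takes 73.7% to 99%, and the bars of 1 group differ from each other by as much as bars of different groups.

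The 3 fast heavy chains differed in how much libraries of 1 group varied. Myh4 was the steadiest: the SD within a group on the log2(CPM + 1) scale had a median of 0.27 over the 14 groups. The same median was 0.74 for Myh1 and 0.96 for Myh2, and 1.65 for slow Myh7, against 0.19 to 0.34 for the 7 other genes. At ZT20 in DRF, Myh2 was at 4573, 341, 597 and 1248 CPM in replicates 1 to 4. The first library was 13.4 times the second, the widest within-group ratio of Myh2. In the same 4 libraries Myh4 was at 38850, 88407, 82674 and 75141 CPM, lowest where Myh2 was highest and highest where Myh2 was lowest, and Myh1 was at 4974, 642, 1122 and 2751 CPM. Slow Myh7 was at 1377, 2.22, 155 and 413 CPM there. At ZT20 in NRF, Myh2 was at 1278, 4632, 2196 and 3027 CPM, with its highest value, just above the highest of DRF, again in the library of lowest Myh4.

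The group means of Myh2 in the day-fed mice were higher from lights-on to ZT4 than from ZT8 to ZT20. At ZT0 it was at 3375, 4712, 5800 and 3101 CPM in DRF and at 1229, 4682, 2994 and 2984 CPM in NRF. At ZT4 it was at 5282, 5006, 3494 and 3426 CPM in DRF and at 3758, 2842, 542 and 3194 CPM in NRF, where the third library stood far below the rest. At ZT8 it was at 2316, 677, 4380 and 1854 CPM in DRF and at 431, 1519, 4104 and 3733 CPM in NRF. Groups overlapped at each of these times, and no DRF library at ZT0 or ZT4 was below 3101 CPM. At ZT12 Myh2 was at 1384, 2954, 2821 and 941 CPM in DRF and at 3986, 4742, 976 and 772 CPM in NRF. At ZT16 it was at 3781, 4872, 757 and 989 CPM in DRF and at 4702, 2217, 865 and 643 CPM in NRF. At ZT24 it was at 5301, 1977, 4051 and 3265 CPM in DRF and at 2408, 4526, 2835 and 3172 CPM in NRF. In both regimens the 4 libraries of ZT12 and of ZT16 fell into a high pair and a low pair, with the exception of NRF at ZT16, where a single library was high.

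The log2 ratios of the heavy chains per length, which do not depend on library scaling, addressed whether the feeding regimen moved the balance of IIa, IIx and IIb transcripts. Myh2/Myh4 averaged −4.85 ± 1.44 (SD, n = 28) in DRF and −4.84 ± 1.33 in NRF, a difference of −0.014. A permutation test that shuffled the regimen within each time gave p = 0.969 (two-sided, Benjamini-Hochberg adjusted over 3 ratios 0.969). Myh1/Myh4 averaged −4.22 ± 1.24 in DRF and −3.96 ± 1.01 in NRF, a difference of −0.26 (permutation p = 0.347, adjusted 0.520). Myh2/Myh1 averaged −0.63 ± 0.38 in DRF and −0.88 ± 0.46 in NRF, so that IIa relative to IIx transcripts was 0.25 higher in DRF on the log2 scale (permutation p = 0.0335, adjusted 0.10). It did not pass the correction. Over the 3 ratios at 7 times, 1 of 21 exact permutation tests had p under 0.05, that of Myh2/Myh1 at ZT4 with a difference of 0.70 and p = 0.0286, the smallest p that 4 against 4 libraries allow. Its adjusted p was 0.600, and the differences over the 21 tests ran from −1.24 to 1.02.

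Across libraries the ratios spanned a wide range. Myh2 per length was 0.326% of Myh4 in the library with the lowest ratio, DRF ZT20 replicate 2, and 14.4% in the highest, DRF ZT0 replicate 3, a 44.2-fold span. Myh2 against Myh1 ran from 24.9% to 94.3%, a 3.78-fold span. The IIa and IIx chains thus moved far more against IIb than against each other. These spans can also depend on how reads common to the genes were shared out, which was not tested.

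Deviations of each library from its group mean on the log2(CPM + 1) scale showed the same split. Myh1 and Myh2 deviated together (Pearson r = 0.933, Spearman rho = 0.937, n = 56), and each deviated with slow Myh7 (r = 0.836 for Myh1, rho = 0.832, and r = 0.871 for Myh2, rho = 0.866). Myh4 deviated against them, with r = −0.711 and rho = −0.701 for Myh1, r = −0.743 and rho = −0.755 for Myh2, and r = −0.629 and rho = −0.604 for Myh7. Permutation within groups gave p = 1e-05, the smallest possible, for 5 of the 6 pairs and p = 9e-05 for Myh4 with Myh7 (adjusted over 6 pairs 1.2e-05 and 9e-05; for rho 1.2e-05 and 5e-05). Without the 2 libraries farthest from the median, r was 0.937 for Myh1 with Myh2, 0.818 for Myh1 with Myh7, 0.851 for Myh2 with Myh7, and −0.675, −0.724 and −0.585 for Myh4 with Myh1, Myh2 and Myh7. The other 7 genes went with Myh4: a second family of 14 correlations, added after the myosin pairs had been seen, gave r = 0.773 (Tnni2) to 0.904 (Actn3) with Myh4 and −0.781 (Myl1) to −0.479 (Atp2a1) with Myh2 (largest permutation p adjusted over the 14, 0.0022; smallest 1.17e-05). The Spearman coefficient ran from 0.771 to 0.903 with Myh4 and from −0.834 to −0.485 with Myh2, and r without the 2 farthest libraries from 0.819 to 0.919 and from −0.761 to −0.425. These relations are within groups, so the mean differences between regimens and times do not enter them. Differences between libraries of 1 group in their response to feeding were not tested. CPM divide by a library size recovered from the authors' score, which was 0.854 to 1.21 times the recovered reads. These genes take 13.6% to 21.2% of the recovered reads. Their values may not be free of each other, and the part this plays was not tested.

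**Figure D2:**
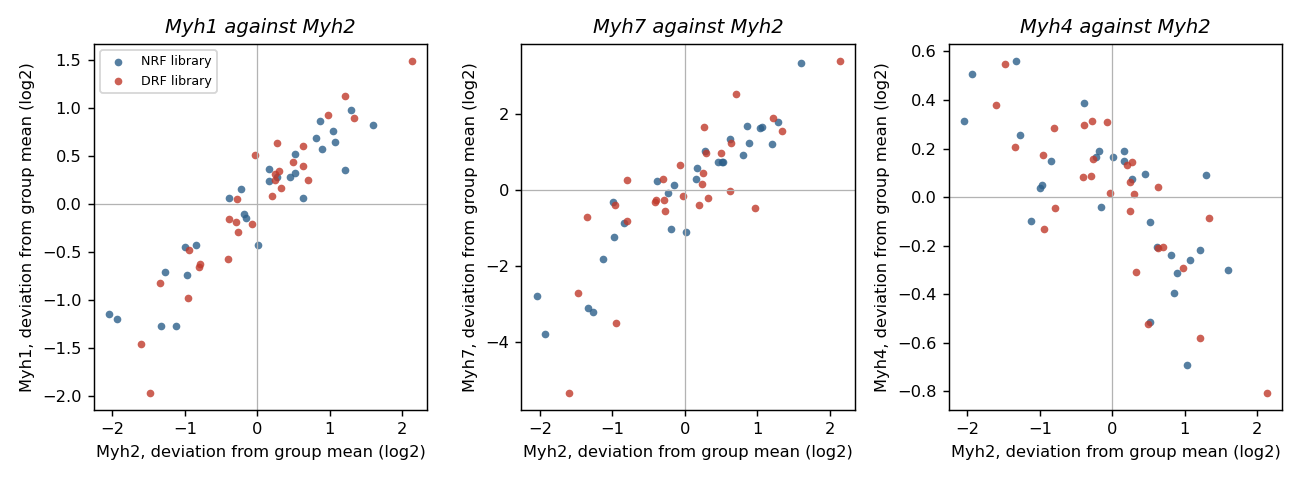
Each point is 1 of the 56 libraries (blue NRF, red DRF), and both axes give deviations from the mean of its group of 4 on the log2(CPM + 1) scale. Myh1 and Myh7 rise with Myh2 (r = 0.933 and 0.871) and Myh4 falls (r = −0.743), in libraries of both regimens.

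Averaged over the day, 9 of the 10 genes had an estimate above 0, that is higher in DRF, under the authors' library sizes, whereas under quantile scaling 4 of 10 did. The light chain Mylpf was the 1 gene that passed the test (limma with Benjamini-Hochberg adjustment over 12024 genes), against 15.9% of all genes called, 8.35% higher and 7.53% lower in DRF. Mylpf rose by 0.29 ± 0.084 (SE) on the log2 scale, 1.22-fold (95% interval 0.12 to 0.46, adjusted p = 0.0173). The other light chain, Myl1, had 0.24 ± 0.094 (adjusted p = 0.0750). The troponins had 0.16 ± 0.070 for Tnnt3 (0.118), 0.16 ± 0.058 for Tnni2 (0.0555) and 0.19 ± 0.073 for Tnnc2 (0.0701), and Actn3 and Atp2a1 had 0.15 ± 0.090 (0.261) and 0.14 ± 0.067 (0.144), all by limma with adjusted p in parentheses. The median over the 10 genes was 0.15, beside −0.0014 over all genes tested. The heavy chains gave no call, and their intervals were wide: Myh4 0.12 (−0.083 to 0.32, limma adjusted p = 0.437), Myh1 −0.18 (−0.62 to 0.27, 0.620) and Myh2 0.071 (−0.50 to 0.64, 0.894). Quantile scaling took Mylpf to 0.071 (limma adjusted p = 0.136) and turned the sign for Myh4, Tnnt3, Tnni2, Actn3 and Atp2a1, whose values are given in the closing part.

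**Figure D3:**
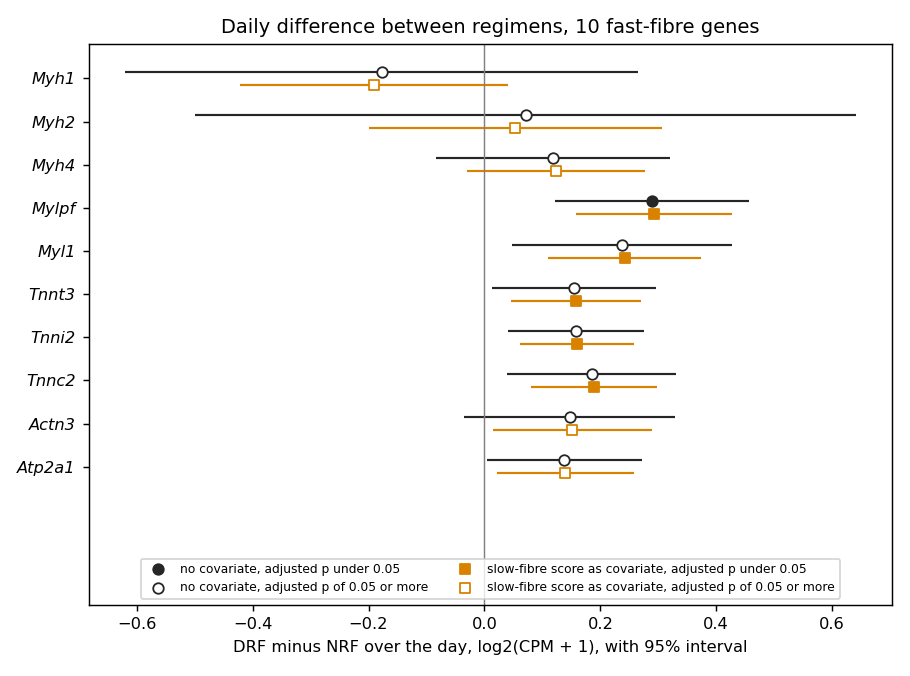
Points give the DRF minus NRF difference over the day on the log2(CPM + 1) scale for the 10 genes with 95% intervals, without a covariate (black) and with the slow-fibre score of each library as covariate (orange); filled symbols have an adjusted p under 0.05. Without the covariate 1 of 10 is filled (Mylpf, 0.29), with it 5 of 10, and the intervals of Myh1 and Myh2 narrow most.

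No slow-fibre transcript was called between the regimens: 0 of 10 genes of the slow list were called over the day, against 15.9% of all genes. Their limma adjusted p was 0.695 to 0.985, with 0 at an unadjusted p under 0.05, and the median difference was 0.026. With a slow-fibre score, the mean log2(CPM + 1) of the 5 slow markers in a library, as covariate, an analysis added after the spread had been seen, 5 of 10 genes were called higher in DRF, against 21.7% of all genes called and 10.8% called higher. These were Mylpf at 0.29 ± 0.067 (limma adjusted p = 0.0029), Myl1 at 0.24 ± 0.066 (0.00858), Tnnc2 at 0.19 ± 0.054 (0.0119), Tnni2 at 0.16 ± 0.049 (0.0183) and Tnnt3 at 0.16 ± 0.056 (0.0371). The estimates stayed within 0.02 of those without the covariate while the SE shrank, for Myh2 from 0.28 to 0.13 and for Myh1 from 0.22 to 0.11. Myh1 and Myh2 still gave no call (−0.19, limma adjusted p = 0.232, and 0.053, 0.803).

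Other transcripts moved with the regimen beside these genes. Red blood cell markers (Hbb-bs, Hbb-bt, Hba-a1, Hba-a2 and Alas2) were called higher in DRF over the day in 5 of 5 cases, by 0.34 to 0.57, and summed to 262 to 1677 CPM in DRF and 185 to 755 CPM in NRF. None of them was at 0 in a library. Markers of endothelial cells, fibroblasts, adipocytes, macrophages and Schwann cells gave 0 calls over the day, those of satellite cells 1 of 3 (lower in DRF), and those of skeletal muscle 2 of 5 (higher). Over all genes 15.9% were called, 8.35% higher and 7.53% lower in DRF, so few calls are to be looked for in lists this short. Values in a library also leaned with gene length: the mean Spearman correlation across genes of a library's deviation from the gene mean with length lay between −0.200 and 0.116 in the 7 DRF groups and between −0.013 and 0.193 in the 7 NRF groups. With that trend removed Mylpf was at 0.22 (limma adjusted p = 0.0639) and 0 of 10 genes were called. The part of red blood cell transcripts in the result was not tested.

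Mylpf, the gene that passed, was higher in DRF by its group mean at 7 of 7 times, least at ZT4 and most at ZT12 to ZT20. Tnni2 was also higher at 7 of 7 times, Tnnt3 at 6 and the rest at 3 (Myh1) to 5. The values of Mylpf by time are those behind its daily difference and add no support to it. The share of all genes higher at 7 of 7 times was not computed. At ZT0 it was at 11680, 9690, 7076 and 11369 CPM in DRF and at 10242, 6129, 10138 and 8967 in NRF. At ZT4 it was at 8538, 10928, 12128 and 12864 CPM in DRF and at 6922, 11766, 13892 and 11157 in NRF. At ZT8 it was at 13342, 14209, 8714 and 12644 CPM in DRF and at 13680, 10135, 9659 and 9142 in NRF. In these light-phase hours the groups overlapped throughout. At ZT12 Mylpf was at 17136, 12257, 14057 and 16317 CPM in DRF and at 8295, 10530, 10136 and 12846 in NRF, with 1 DRF library below the highest NRF library. At ZT16 it was at 14036, 13392, 19688 and 13836 CPM in DRF and at 8656, 11685, 12502 and 15504 in NRF, where a single NRF library reached into the DRF range. At ZT20 it was at 14468, 17694, 15230 and 14569 CPM in DRF and at 12029, 8124, 11516 and 13256 in NRF, and each DRF library was above each NRF library. At ZT24 it was at 9645, 12758, 10358 and 14932 CPM in DRF and at 12769, 7885, 11819 and 11637 in NRF, which overlapped again.

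**Figure D4:**
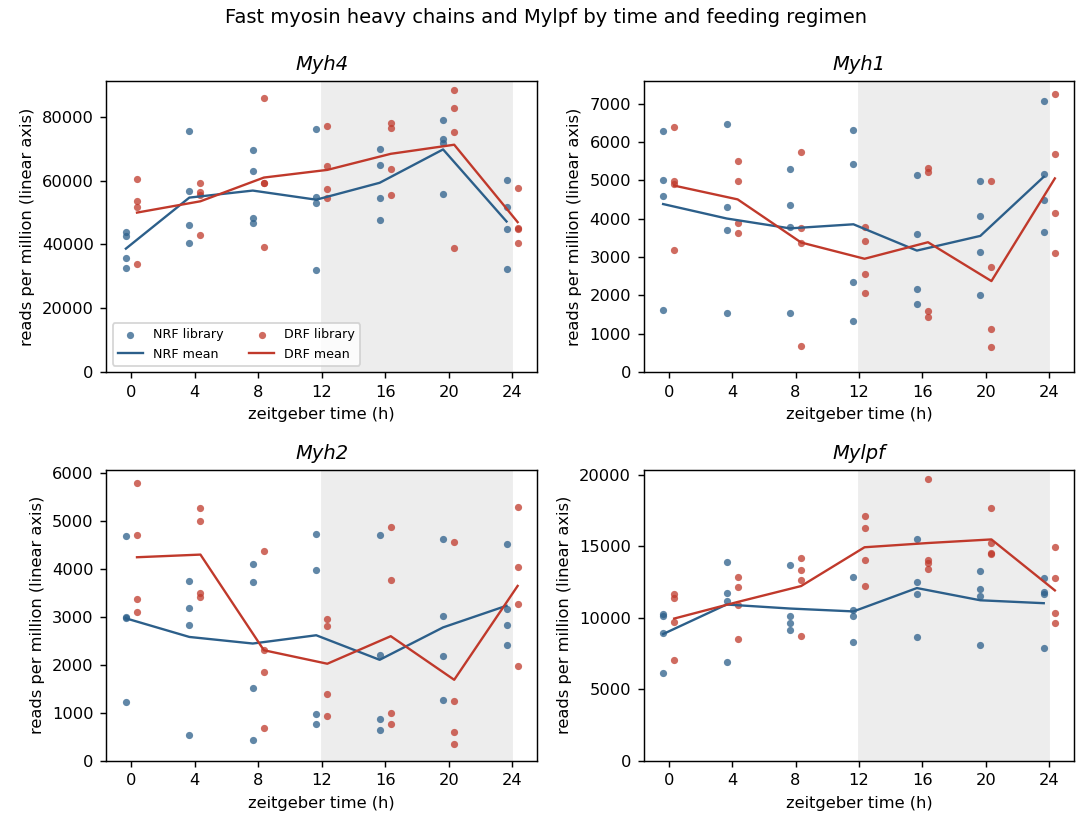
Points give CPM (linear axes from 0) in each library at each zeitgeber time for Myh4, Myh1, Myh2 and Mylpf, lines join the means of 4 libraries, NRF is blue, DRF red, and grey marks the dark phase. Mylpf in DRF averages 14942 to 15490 CPM from ZT12 to ZT20 while NRF averages 10452 to 12087 CPM. The points of the regimens overlap at each time for the heavy chains, and at each time but ZT20 for Mylpf.

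Taken time by time, 0 of the 10 genes differed between the regimens at any of the 7 times, against 1.85% of all genes called at ZT0, 0.973% at ZT4, 0.208% at ZT8, 3.5% at ZT12, 10.8% at ZT16, 2.96% at ZT20 and 5.56% at ZT24, and 21.2% called at 1 time or more. The largest numbers of unadjusted p-values under 0.05 were 4 of 10 at ZT12, 1 at ZT16 and 1 at ZT20, and 0 at the other times. The smallest adjusted p was that of Atp2a1 at ZT16, where the difference was 0.38 ± 0.17 (SE, limma, adjusted p = 0.133). The SERCA1 gene was at 42585, 50394, 49791 and 48808 CPM in DRF and at 35686, 31956, 41124 and 38679 CPM in NRF at that time, and the groups did not overlap. At ZT12 the differences were 0.53 ± 0.24 for Myl1 (limma adjusted p = 0.189), 0.52 ± 0.21 for Mylpf (0.142), 0.44 ± 0.19 for Tnnc2 (0.153) and 0.35 ± 0.15 for Tnni2 (0.158). Over the 70 combinations of gene and time the groups did not overlap in 3, or 4.29%, against 9.92% of such combinations over all genes tested (7.98% at ZT0, 9.72% at ZT4, 4.65% at ZT8, 10.5% at ZT12 and 12.2% at ZT24). These were Atp2a1 at ZT16 (18.3% of all genes at that time), and Mylpf and Tnni2 at ZT20 (6.18%), each with DRF above. Tnni2 at ZT20 was at 9039, 9299, 9274 and 8754 CPM in DRF and at 8376, 7010, 8053 and 8708 CPM in NRF. The 4 DRF libraries lay within 1.06-fold of each other, the tightest group of any of the 10 genes.

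Over zeitgeber time, a test that assumes no shape called 0 of 10 genes in NRF, against 19.7% of all genes, with 2 of 10 at an unadjusted p under 0.05. These were Atp2a1 (limma adjusted p = 0.0526) and Actn3 (0.0641). In DRF it called 2 of 10 against 47.2% of all genes, Actn3 (limma adjusted p = 0.0289) and Mylpf (0.0413). Both calls were lost without replicate 3 of ZT0 (adjusted p 0.078 and 0.112), replicate 3 of ZT16 (0.0598 and 0.0702) or replicate 2 of ZT20 (0.0538 and 0.0685). The call of Mylpf was lost in 11 of 56 such fits, the others being those without DRF ZT0 replicate 2 (0.0685), ZT4 replicates 1 and 2 (0.0597 and 0.0524), ZT12 replicates 1, 3 and 4 (0.0631, 0.0503 and 0.0622), ZT20 replicate 3 (0.054) or ZT24 replicate 3 (0.0503). By group mean, Actn3 in DRF was lowest at ZT0, at 10462, 7930, 4989 and 8597 CPM, and highest at ZT16, at 10974, 12516, 15410 and 14428 CPM.

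A 24 h cosine fitted per regimen gave a rhythm in 6 of 10 genes in DRF, against 48.7% of all genes, and in 0 of 10 in NRF, against 15.1% of all genes; in NRF 0 of 10 had an unadjusted p under 0.05. The 6 were both light chains, the 3 troponins and Actn3, with fitted peaks between 14.6 and 16.1 h, early in the dark phase. Peak-to-trough differences on the log2 scale were 0.70 for Actn3 (limma adjusted p = 0.0147, peak 16.1 h), 0.65 for Myl1 (0.00945, 14.6 h) and 0.61 for Mylpf (0.00795, 15.3 h). They were 0.52 for Tnnc2 (limma adjusted p = 0.0113, 15.5 h), 0.41 for Tnnt3 (0.0482, 15.5 h) and 0.41 for Tnni2 (0.0165, 15.9 h). Atp2a1 had a like size of 0.41 with a peak at 16.7 h and did not pass (limma adjusted p = 0.0710). In NRF the fitted peak-to-trough of the same 6 genes was 0.16 to 0.27, with peaks at 14.7 to 17.4 h.

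The heavy chains split in their fitted timing. Myh4 followed the other genes, with a peak at 14.7 h and 0.50 in DRF (limma adjusted p = 0.0949) and at 14.9 h and 0.38 in NRF (0.423). Myh1 and Myh2 had fitted peaks near the opposite side of the cycle, at 3.1 h with 0.99 (limma adjusted p = 0.124) and at 3.3 h with 1.5 (0.0607) in DRF, and at 1.4 h with 0.50 (0.703) and at 23.8 h with 0.75 (0.602) in NRF. None of these passed, and the sizes of Myh1 and Myh2, the largest of the 10, stood beside the largest spread within groups. The DRF rhythm of Myh2 lay close to the threshold: it was called with the total of recovered reads as library size (limma adjusted p = 0.041), under quantile scaling (0.0436) and with library weights (0.0389), and in 7 of 56 fits without 1 library (0.0217 to 0.132 over the 56). The 7 were those without DRF ZT8 replicate 2, ZT12 replicate 2, ZT16 replicates 1 and 2 or ZT20 replicate 1, or without NRF ZT4 replicate 3 or ZT8 replicate 1. Its change over time in DRF (limma adjusted p = 0.110) was called with library weights (0.00579) and without DRF ZT20 replicate 1 (0.0218). The DRF rhythm of Myh1 was called without DRF ZT8 replicate 2 (limma adjusted p = 0.0424) and in no other fit that left out 1 library. Slow Myh7 had its fitted peak in DRF at 2.7 h with 2.21 (limma adjusted p = 0.141).

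The rhythm was not shown to differ between regimens. A direct test of the difference called 0 of 10 genes, against 13.1% of all genes, with 0 of 10 at an unadjusted p under 0.05. Its smallest adjusted p was 0.390, for Mylpf. With the slow-fibre score as covariate, 1 of 10 genes kept a call for a 24 h rhythm in DRF, Mylpf at 0.41 (limma adjusted p = 0.0450), against 45.8% of all genes, and Actn3 (0.48), Myl1 (0.37), Tnnc2 (0.32), Tnni2 (0.29) and Tnnt3 (0.25) had adjusted p of 0.0574 to 0.217. The slow marker sum itself had medians of 1315, 1670, 1004, 510, 619, 559 and 1869 CPM from ZT0 to ZT24 in DRF, lowest from ZT12 to ZT20. In NRF its medians were 2117, 1622, 896, 1433, 399, 1207 and 1889 CPM over the same times. There 0 of the 10 genes had a called rhythm, against 15.1% of all genes. In DRF 0 of the 5 genes of the slow marker sum had a called rhythm, against 48.7% of all genes without the covariate. Under quantile scaling all 6 lost the call, with limma adjusted p of 0.452 for Mylpf, 0.241 for Myl1, 0.207 for Tnnt3, 0.785 for Tnni2, 0.746 for Tnnc2 and 0.212 for Actn3, and the 1 gene called was Myh2 (0.0436). The call of Tnnt3 was lost in 29 of 56 fits that left out 1 library, and its adjusted p ran from 0.0294 to 0.107. In the authors' deposited table of rhythm tests, 0 of the 10 genes had an adjusted p under 0.05 in DRF, where Myl1 was lowest at 0.0555, and 0 in NRF, where all 10 stood at 1; the same table has 15.9% of its 16119 genes under 0.05 in DRF and 7.16% in NRF.

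**Figure D5:**
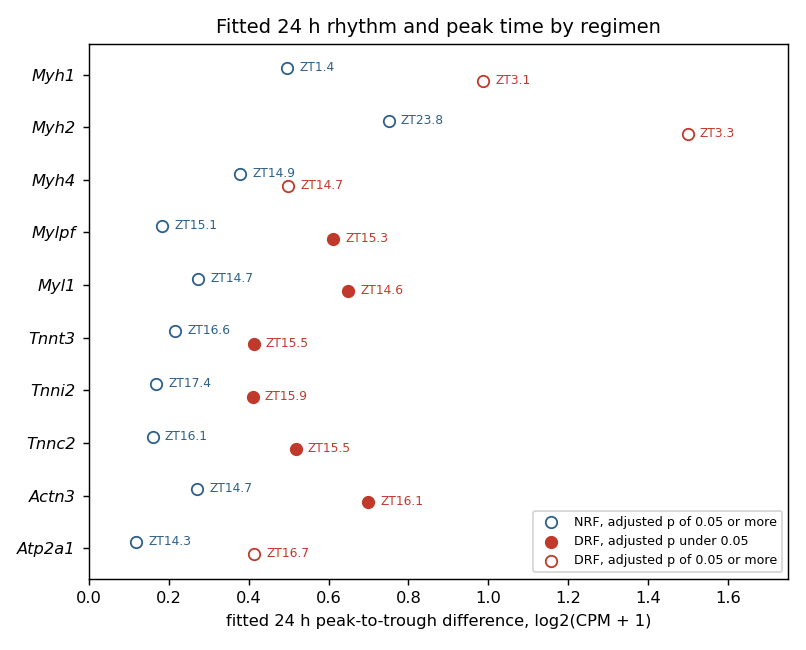
For each of the 10 genes the horizontal position gives the fitted 24 h peak-to-trough difference on the log2(CPM + 1) scale in NRF (blue) and DRF (red), with the fitted peak time beside it; filled symbols have an adjusted p under 0.05. The 6 filled symbols are all DRF, at 0.41 to 0.70, and the open DRF symbols of Myh1 and Myh2 lie farthest right with peaks near 3 h.

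Among genes outside the 10, the group means of Myh4 over the 14 groups were most like those of Mybpc2, the fast isoform of myosin-binding protein C (Pearson r = 0.969 on log2 values, 14 group means, a description), Vezt (0.962) and Wdr41 (0.961). Those of Myh2 were most like Myoz2 (0.966), the slow-fibre member of the Z-disc myozenins, Fhl1 (0.963) and Actn2 (0.960), the actinin found in all fibre types. Those of Myh1 were most like Mrps9 (0.944), Fhl1 (0.943) and the oxygen store myoglobin, Mb (0.941).

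A further 12 genes of fast fibres (Mybpc2, Myoz1, Casq1, Pvalb, Tmod4, Mylk2, Smtnl1, Tpm1, Ampd1, Eno3, Ldha and Pgam2) gave a like picture. Over the day 3 of 12 were called higher in DRF and 0 lower, against 8.35% of all genes called higher, with a median of 0.13. They were Pvalb, the calcium buffer parvalbumin, at 0.28 ± 0.097 (limma adjusted p = 0.0440), the glycolytic mutase Pgam2 at 0.26 ± 0.058 (0.00386) and the thin-filament capping protein Tmod4 at 0.17 ± 0.049 (0.0181). In DRF 11 of 12 had a called 24 h rhythm, against 48.7% of all genes, and in NRF 0 of 12 did, against 15.1%, while the test of the difference called 0 of 12, against 13.1%. The largest sizes were Smtnl1 at 1.28, with a peak at 3.0 h, and Tpm1 (0.69, 15 h), Pvalb (0.69, 15.2 h) and the calcium-store protein Casq1 (0.68, 14.7 h).

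Of 10 slow-fibre genes, 1 had a called rhythm in DRF, against 48.7% of all genes, and 0 in NRF, against 15.1%. The 1 was the slow tropomyosin Tpm3 (1.57, peak 2.4 h, limma adjusted p = 0.0484). The developmental and specialised myosins Myh3, Myh8, Myh13 and Myl4 summed to at most 28 CPM, and 0 of 4 differed over the day, against 15.9% of all genes. In DRF 2 of 4 had a called rhythm, a share like the 48.7% of all genes. They were Myh13, of the extraocular muscles (1.79, peak 2.6 h), and the embryonic light chain Myl4 (0.69, 14.2 h).

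Of 14 regulators of fibre type (Six4, Eya1, Eya3, Tbx15, Sox6, Maf, Mafa, Vgll2, Nfatc1, Myod1, Mef2c, Prox1, Ppargc1a and Thra), 1 rose and 1 fell in DRF over the day, against 15.9% of all genes called. Myod1, the myogenic factor more abundant in fast muscle, rose by 0.22 ± 0.077 (limma adjusted p = 0.0479), and Mef2c, a myogenic MADS-box factor, fell by 0.21 ± 0.067 (0.0257). A 24 h rhythm was called for 8 of 14 in NRF, against 15.1% of all genes, and for 10 of 14 in DRF, against 48.7%, and the test of the difference called 5 of 14, against 13.1%. Of the 5, the largest differences were those of Myod1, with a peak-to-trough of 2.22 at 20.4 h in NRF and 0.91 at 17.4 h in DRF (limma adjusted p of the difference 0.00196), of Mafa (1.15, 0.00532), a large Maf factor of IIb fibres, of Prox1 (0.86, 0.0433) and of Eya1 (0.62, 0.0115).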

How the data were processed

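Polyadenylated RNA of 56 gastrocnemius libraries was sequenced as paired reads on BGISEQ-500, per the labels' protocols. The submitters' processing notes name HISAT2, Bowtie2, RSEM and the builds mm10 and GRCm38.p6, but not their versions or roles. The expression table the authors deposited is named for TPM. Its values were found to be a score, the log2 of 1 plus reads per 1000000, divided by gene length and scaled so that each library sums to 1000000. The score was inverted to reads for 17442 of 19072 genes. It also gave the library size behind CPM, which was 0.854 to 1.21 times the recovered reads of a library. This ratio differed between groups. At ZT0 it was 0.9535 to 1.168 in DRF and 1.062 to 1.205 in NRF. At ZT20 it was 0.8613 to 0.9783 in DRF and 0.8854 to 0.9997 in NRF. The authors' deposited rhythm table gives meta2d p-values and adjusted values per gene, with amplitudes on that score.

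Tests were run on log2(CPM + 1) with limma 3.58.1 in R 4.3.3, with all 14 groups in 1 model, Benjamini-Hochberg adjustment over the 12024 genes whose mean reached 1 CPM, and a threshold of 0.05. Daily differences count ZT0 and ZT24 together as 1 time, which weighs the same as each of the other times. Rhythms were fitted as a 24 h cosine. The design had assumed TPM, so the CPM recovered from the score took its place. The script was tested on simulated data. Libraries of a group differed beyond sampling noise (chi-square over degrees of freedom 18.8 to 524 in 84 pairs), so none was taken for a copy. Recovered reads were 28172990 to 36183392 per library, so counting error is small for these genes. The members and lists were chosen with earlier results of these data known. All 10 members are named, and of each other list at most 4 called genes per comparison, those of largest size. Some genes of the regulator list are not reported here. The alternatives tried were other library scalings, pseudocounts, filters and weights, removal of a length trend, a replicate block and leaving out libraries or times.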

Additional observations from a re-analysis of the deposited data

Results flagged for a closer look

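In 3 of 140 groups of 4 libraries tested, 1 library lay far from the other 3 by Dixon's criterion, which chance meets in about 1 of 20 groups. Mylpf was at 19690 CPM in DRF ZT16 replicate 3, while the others lay between 13392 and 14036. Myl1 was at 13860 CPM in NRF ZT8 replicate 1, while the others lay between 9124 and 9787. Tnni2 was at 6121 CPM in NRF ZT24 replicate 2, while the others lay between 7875 and 8172.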

How the results depend on the processing

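Most counts are rounded to 3 digits. Over all genes, the daily difference called 1910 genes, a difference at any time 2550, change over time 2360 in NRF and 5670 in DRF, and the rhythm 1820 in NRF, 5860 in DRF and 1580 for their difference. Among the 10 members the same counts were 1, 0, 0, 2, 0, 6 and 0. With the total of recovered reads as library size, the daily count was 3500 (5.60% of calls higher in DRF, against 52.6%), members changing over time were 1 in NRF and 1 in DRF, and Myh2 stood at −0.00709. That scaling moved the median of all genes to −0.0712. Under quantile scaling the members called were 0 over the day, 0 for change in DRF and 1 for the DRF rhythm (Myh2, with none of the 6 called before), and the daily differences of Myh4, Tnnt3, Tnni2, Actn3 and Atp2a1 were −0.0239, −0.0282, −0.0209, −0.0221 and −0.0259. Without a filter the members called were 0 over the day, 0 for change in DRF and 3 for the DRF rhythm, and more genes enter the adjustment there. Over all genes 1983 were called over the day under quantile scaling and 1539 without a filter. With a mean CPM of at least 10 they were 2 over the day, 1 and 5 for change in NRF and DRF, and 1150 genes had an NRF rhythm. Over all genes 1752 were called over the day there, and the count for DRF change is not given here. On log2 of the deposited score the members called were 0 over the day, 2 and 0 for change in NRF and DRF and 2 for the DRF rhythm (474 of 1396 daily calls higher). With the length trend removed the daily count was 949 (62.2% higher), and members called were 0 over the day and 1 each for change in NRF and DRF. With library weights 6 members were called over the day, 4 at some time, 4 and 9 for change in NRF and DRF. Genes called were then 2693 over the day (1365 higher in DRF), 5420 at some time, 4580 for NRF change and 2600 for the rhythm difference. Myh2 stood at −0.0162. The count of all genes for DRF change with library weights is not given here, and the main fit had 5670. The 9 members can therefore not be set against a share of all genes. Without ZT24 the daily count was 1060 and the rhythm difference 1020. Without ZT0 the NRF change count was 1550 and members changing in DRF were 0. With the slow-fibre score, added after seeing the data, members called were 5 over the day, 1 at some time, 2 and 1 for change in NRF and DRF and 1 for the DRF rhythm. Over all genes 2609 were called over the day and 5509 for the DRF rhythm with that score. The Myh2/Myh4 difference was 0.00204 from the deposited scores. Where a setting has a count of members without a count of all genes beside it, the members cannot be set against a share. Apart from what the construction shows, the cause of the shifts between settings was not tested.

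Leaving out 1 library at a time gave 1270 (without DRF ZT20 replicate 1) to 2920 (without NRF ZT20 replicate 4) daily calls and 1550 (without DRF ZT16 replicate 3) to 3240 at any time. Members called ranged over 1 to 4 for the day, 0 to 2 for NRF change, 0 to 5 for DRF change and 5 to 8 for the DRF rhythm. Over all genes NRF change ranged over 1880 to 2660, DRF change over 5010 to 6240 and the DRF rhythm over 4980 to 6060. The daily difference of Myh2 ranged from −0.0476 to 0.16, the Myh2/Myh4 ratio from −0.116 to 0.113, Myh2/Myh1 from 0.208 to 0.275 and Myh1/Myh4 from −0.337 to −0.154. Replicate numbers did not pair the libraries: of 28 pairs of a DRF and an NRF library with the same time and number, 13 had deviations correlated over 0.1 (−0.517 to 0.607), and in 6 the library correlated best with its own number. With the replicate block the daily count was 1800 and 1 member was called, and 5 members kept a DRF rhythm, Tnnt3 standing at an adjusted p of 0.0501.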
